A study of Mus musculus with 6 samples.

Results

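The genes of mitochondrial and peroxisomal fatty acid oxidation, with ketone body enzymes and acyl-CoA thioesterases, were followed in mouse liver RNA. The 39 members were chosen by symbol and matched to 39 of the 53715 gene IDs in the count table through the GENCODE M21 annotation. There were 22 mitochondrial members, 10 peroxisomal members, 2 members of ketone body metabolism and 5 thioesterases. The libraries hold polyadenylated RNA from whole liver of F1 males of the outbred ICR stock, taken at 8 weeks of age. In the control F1 group, 3 libraries carry the stress label control. In the FR F1 group, 3 libraries carry the stress label paternal famine, while the series title speaks of a paternal overdiet and FR is not spelled out. The diet of the F1 males themselves, their feeding state, the hour of collection and the number of fathers were not given in the sources used here. Nothing states that the libraries of a group came from separate animals, so p-values measure the spread between these libraries, which may be technical.

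Fatty acids are joined to coenzyme A by acyl-CoA synthetases, handed to carnitine by CPT1A at the outer mitochondrial membrane, carried across the inner membrane and returned to coenzyme A by CPT2. In the matrix, dehydrogenases, hydratases and thiolases shorten the chain in repeated rounds, passing electrons through the electron transfer flavoprotein to the respiratory chain and releasing acetyl-CoA, which the fasting liver turns into ketone bodies. Peroxisomes shorten very long and branched chains and bile acid side chains, and many of these genes are targets of the nuclear receptor PPARα.

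Library totals ranged from 2279755 to 2730160 counts, and 13022 genes were tested. Hepatocyte markers were abundant. The 6 chosen markers summed to between 3142 and 3785 CPM (counts relative to library size after TMM scaling) in control F1 and between 2826 and 3255 in FR F1 libraries, led by Cps1 and Alb. Alb reached 1.14 counts per base pair, where no protein-coding gene exceeded 1.16, those with very short transcripts left out. The longest transcripts have 5555 bases for Cps1 and 2034 for Alb. Whether a ceiling in the counts shaped these sums or their order was not tested. The 8 markers of the sinusoidal endothelium, led by Stab2 and Eng, summed to 327 to 490 CPM in control F1 and 601 to 710 in FR F1 libraries. The 8 stellate cell and fibroblast markers, led by Ecm1 and Dcn, summed to 310 to 500 and 648 to 810 CPM. All 8 endothelial and all 8 stellate markers had positive log2 fold changes, and 0 and 1 of them (Pdgfra) passed the test given below, with 6 and 5 at an unadjusted p under 0.05. Stab2 had a log2 fold change of 0.05, with overlapping groups. The 8 macrophage markers, led by Clec4f and Cd5l, summed to 305 to 586 and 378 to 728 CPM, which overlapped. Their log2 fold changes were all above zero too, with a smaller median, 0.37, against 0.97 for endothelial and 0.88 for stellate markers. Of these 8 macrophage markers 0 passed, and 2 were at an unadjusted p under 0.05. The 5 cholangiocyte markers, led by Spp1 and Sox9, ranged from 42.4 to 137 and from 70.3 to 94.0 CPM. The 5 adipose markers and the 5 muscle markers summed to under 2 CPM in every library, with Cidea and Mb at 0 in all. Control replicate 3 stood apart in the 13 mitochondrially encoded protein genes, which summed to 893 CPM there against 2361 to 2729 CPM in the other libraries. Of these genes 9 had enough counts to be tested. The most abundant, mt-Nd5 and mt-Co1, reached 1.05 and 0.78 counts per base pair. Whether a ceiling in the counts shaped this contrast was not tested. In bulk tissue, fewer cells of a type and less RNA per cell cannot be told apart.

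Of the 39 members, 38 had enough counts to be tested, and 1 of them passed the threshold in the comparison of FR F1 with control F1 livers. That gene was Cpt1a, which was lower in FR F1 livers, and it was also the 1 member past the threshold when control replicate 3 was left out. Across all tested genes, 0.837% passed by the same rule (adjusted p under 0.05, edgeR quasi-likelihood F test with Benjamini-Hochberg adjustment over all tested genes, 3 libraries per group). Before adjustment 5 members had a p under 0.05, of which Pdk4, Acot1, Crot and Acaa1b had higher and Cpt1a lower values, where 17.9% of all tested genes lay under that limit. The FR F1 and control F1 libraries did not overlap in 12 of the 38, against 25.7% of all tested genes, with FR F1 above in 6 and below in 6, where 12.5% and 13.2% of all tested genes did so. The median log2 fold change, given throughout as FR F1 minus control F1, was -0.0060 over the 38 members and 0.00040 over all tested genes. Among the 32 members with a mean of at least 100 CPM the median absolute log2 fold change was 0.11, against 0.19 for the 3030 tested genes at that level.

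**Figure D1:**
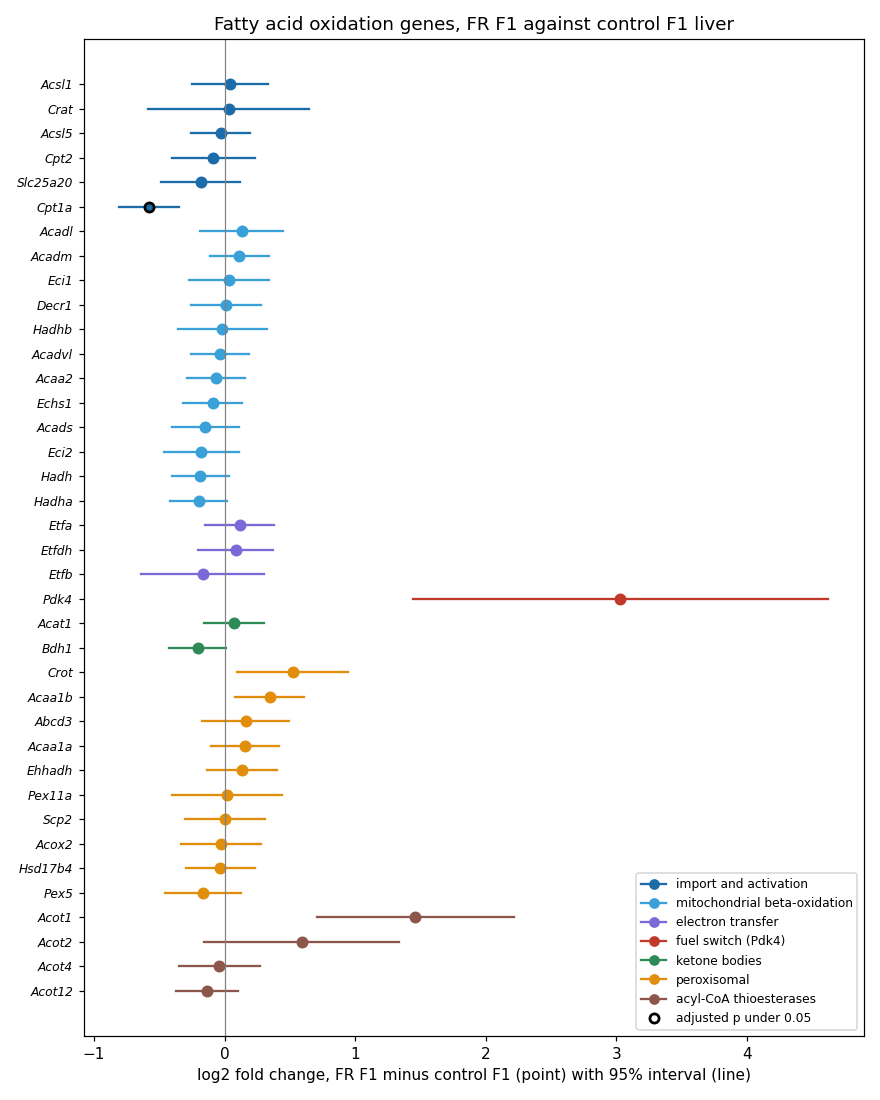
Log2 fold change (FR F1 minus control F1, points) with its 95% interval (lines) for the 38 tested members, coloured by role, with a black ring where the adjusted p is under 0.05. The 12 mitochondrial beta-oxidation enzymes lie between -0.20 and 0.13, while Cpt1a stands at -0.58 and Pdk4 at 3.03.

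Mitochondrial import and activation held the member past the threshold. Cpt1a encodes the liver form of carnitine palmitoyltransferase 1, the malonyl-CoA-sensitive gate of fatty acid entry into mitochondria. Its levels were 536, 534 and 499 CPM in control replicates 1, 2 and 3 and 322, 377 and 352 CPM in FR replicates 1, 2 and 3. Every FR F1 library lay below every control F1 library. The mean went from 523 ± 20.7 to 350 ± 27.4 CPM (SD, n = 3 per group), 33.1% lower, with a log2 fold change of -0.58 ± 0.099 (SE; edgeR adjusted p = 0.0460). The size held between -0.51 and -0.63 over 13 alternatives, but the adjusted p was under 0.05 in 6 of them and ranged from 0.00148 to 0.218. Leaving out control replicate 2 gave 0.177, and leaving out an FR F1 library gave 0.218, 0.15 and 0.164 for FR replicates 1, 2 and 3. Without control replicate 3 it was 0.0381, and with RLE factors 0.0557. Hepatocyte marker sums overlapped between the groups, but 4 of these 6 markers had negative log2 fold changes, as Cpt1a did, with a median of -0.15. Alb, at -0.32, and Tat, at -0.34, had every FR F1 library below every control library (edgeR adjusted p = 0.190 and 0.249), and Cps1 was at -0.22. Apoa1, at -0.08, Ttr, at 0.05, and Serpina1a, at 0.05, had overlapping groups, as had Cps1. Alb reached 1.14, Apoa1 0.89, Tat 0.71 and Ttr 0.71 counts per base pair. A ceiling in the counts, described below, could understate the differences of such genes. Endothelial and stellate sums were higher in the FR F1 libraries without overlap. The part of these markers in the Cpt1a values was not tested.

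The share of all tested genes that passed moved with the setting as well. It was 2.75% with DESeq2, 0.791% with limma-voom, 0.814% with RLE factors, 0.883% with library totals only, 4.04% with no filter on low counts, 0.161% with the replicate block and 0.858% with counts expanded toward a ceiling. Leaving out control replicates 1, 2 and 3 gave 4.83%, 0.127% and 1.19%, and leaving out FR replicates 1, 2 and 3 gave 0.0527%, 0.0825% and 0.336%.

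Cpt1a (ENSMUSG00000024900.4) spans chromosome 19 from 3322334 to 3385733 on the plus strand of mm10. Its upstream sequence is shown because it is the promoter side of the single member past the threshold. The stretch chr19:3323051-3323284, plus strand, ends 17 bases before the RefSeq start site and overlaps no annotated exon, though a longer annotated Cpt1a transcript begins before it, so that it lies in an intron of that transcript. Capitals mark GC boxes (GGGCGG, or CCGCCC read on the other strand). A CCAAT box (CCAAT) that begins at position -19 from the start site runs past the end of the stretch and is not marked.
Cpt1a: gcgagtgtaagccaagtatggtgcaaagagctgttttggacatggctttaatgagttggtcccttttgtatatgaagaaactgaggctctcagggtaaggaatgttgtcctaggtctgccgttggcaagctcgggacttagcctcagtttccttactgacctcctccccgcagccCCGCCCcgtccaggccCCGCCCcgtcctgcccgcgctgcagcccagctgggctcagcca

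The other 5 genes of import and activation did not pass. Acsl1, the main acyl-CoA synthetase gene of liver, had 672, 709 and 566 CPM in the control libraries and 603, 766 and 637 in the FR F1 libraries, so that the groups overlapped throughout. Its log2 fold change was 0.04, with a 95% interval from -0.25 to 0.33. Acsl5, another synthetase, had -0.03 (-0.26 to 0.20). Cpt2, which regenerates acyl-CoA inside the matrix, had -0.09 (-0.41 to 0.23), and Slc25a20, the carnitine-acylcarnitine carrier of the inner membrane, had -0.18 (-0.48 to 0.12). Crat, a carnitine acetyltransferase, had 0.03 with a wide interval, -0.58 to 0.65. The interval of Cpt1a, -0.81 to -0.35, lay wholly below zero, and those of the other 5 genes all included zero. Whether the change of Cpt1a differed from theirs was not tested.

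**Figure D2:**
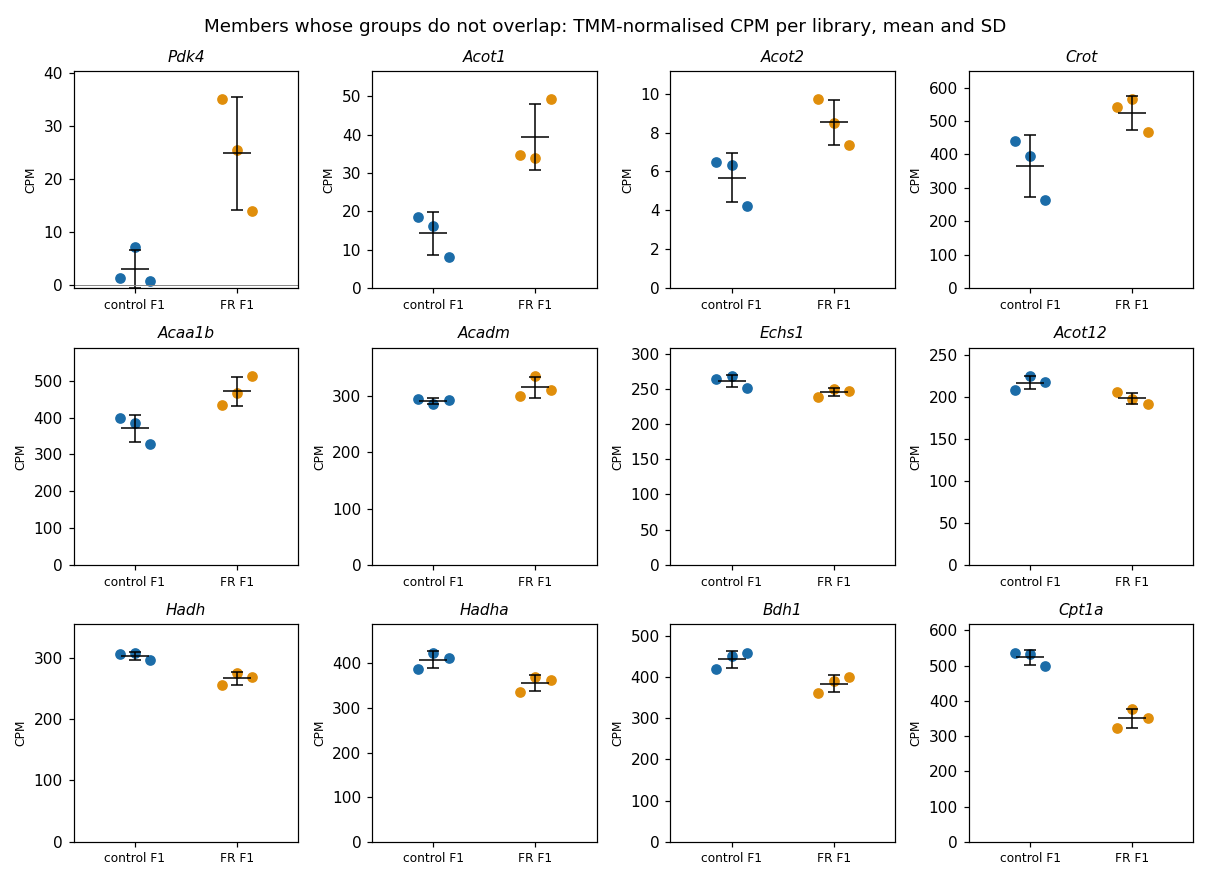
Level of the 12 tested members whose groups do not overlap, as TMM-normalised CPM on linear axes that include 0, with 1 point per library (controls blue, FR F1 orange) and the mean with its SD in black (n = 3 per group). Pdk4 and Acot1 are at 0.767 to 18.6 CPM in control F1 and 14.0 to 49.2 CPM in FR F1 libraries, and Cpt1a goes from 523 to 350 CPM on average.

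Of the 12 genes of the mitochondrial beta-oxidation spiral, 0 passed the threshold with edgeR and 0 at an unadjusted p under 0.05 (17.9% of all tested genes were). The count was also 0 with DESeq2 and with limma-voom. Their median log2 fold change was -0.05, with 4 positive and 8 negative values, and all 12 of their 95% intervals lay within 0.5 of zero in either direction. Such intervals were found for 2094 of the 13022 tested genes and for 1301 of the 3030 with a mean of at least 100 CPM. The acyl-CoA dehydrogenases take the chain by length. Acadvl, for very long chains, had -0.04 ± 0.096 (SE), Acadl, for long chains, 0.13 ± 0.14, Acadm, for medium chains, 0.11 ± 0.097, and Acads, for short chains, -0.15 ± 0.11. Acadm had 295, 285 and 293 CPM in the control libraries and 299, 335 and 310 in the FR F1 libraries, an arrangement without overlap whose adjusted p was 0.554. Counts of Acadvl are uncertain, since 1151 of its 2686 exonic base pairs lie opposite Dvl2 exons on the other strand and the strand setting was not given in the sources used here.

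Hadha and Hadhb encode the alpha and beta subunits of the mitochondrial trifunctional protein, which works on long-chain intermediates. Hadha had 387, 424 and 413 CPM in the control libraries and 335, 368 and 362 in the FR F1 libraries, again without overlap, with a log2 fold change of -0.20 (95% interval -0.42 to 0.02; edgeR adjusted p = 0.312). Hadhb had 230, 215 and 175 CPM in the control libraries and 181, 232 and 200 in the FR F1 libraries, which overlapped, with -0.02 (-0.36 to 0.33). Per kilobase of the longest transcript, control F1 levels were 102 ± 4.73 CPM for Hadha and 47.1 ± 6.49 CPM for Hadhb (SD, n = 3). The longest transcripts have 4017 bases for Hadha and 4388 for Hadhb. Whether these are the main forms in liver was not tested, so the 2 levels may not be comparable. The genes are transcribed in opposite directions from neighbouring starts. The 85 bases between their first exons in GENCODE, chr5:30155163-30155247, are shown on the plus strand, the coding strand of Hadhb, because it separates the starts of both subunit genes. Capitals mark 2 GC boxes.
Hadha-Hadhb interval: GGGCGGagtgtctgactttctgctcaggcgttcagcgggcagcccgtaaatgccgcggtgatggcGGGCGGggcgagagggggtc

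Downstream in the spiral, Echs1, the short-chain enoyl-CoA hydratase gene, had 264, 268 and 252 CPM in the control libraries and 239, 250 and 247 in the FR F1 libraries. Hadh, the short-chain hydroxyacyl-CoA dehydrogenase gene, had 306, 308 and 296 CPM against 255, 276 and 269 CPM. In both genes every FR F1 library was below every control F1 library, by small margins, and the adjusted p were 0.635 and 0.341. Acaa2, the mitochondrial thiolase gene, was the most abundant of the spiral per length, at 264 CPM per kilobase in control F1 and 252 in FR F1 livers, and its log2 fold change was -0.07 ± 0.097. The isomerase genes Eci1 and Eci2 and the dienoyl-CoA reductase gene Decr1, which serve unsaturated chains, had 0.03, -0.18 and 0.0083. None of these genes passed.

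The electron transfer flavoprotein genes did not pass either. Etfa, its alpha subunit, had 241, 226 and 206 CPM in the control libraries and 225, 255 and 249 in the FR F1 libraries, a log2 fold change of 0.12 (95% interval -0.15 to 0.38). Etfdh, the ubiquinone oxidoreductase gene that takes over the electrons, had 0.08 (-0.20 to 0.37). Etfb, the beta subunit gene, had -0.17 (-0.64 to 0.30) on only 53 to 65 counts per library. Of its 1164 exonic base pairs, 617 are shared on the same strand with the gene model Gm45233, and how such reads were counted was not given in the sources used here.

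Without Pdk4, the 21 mitochondrial members summed to 5728, 6011 and 5474 CPM in the control libraries and 5050, 5689 and 5552 in the FR F1 libraries, which overlapped. FR replicate 1 was the lowest of the 6.

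Pdk4, the mitochondrial member of largest fold, encodes pyruvate dehydrogenase kinase 4, which holds back the use of pyruvate while fat is burned and is a known fasting and PPARα target. It had 3, 16 and 2 counts in control replicates 1, 2 and 3 and 94, 69 and 34 counts in FR replicates 1, 2 and 3. These correspond to 1.30, 7.21 and 0.767 CPM against 35.1, 25.4 and 14.0 CPM. All FR F1 libraries were above all control F1 libraries, and both groups were widely spread. The log2 fold change was 3.03 ± 0.69 (SE), with a 95% interval from 1.44 to 4.62, and the adjusted p with edgeR was 0.0955. Its adjusted p lay between 4.96e-10 and 0.320 across the settings tried, and Pdk4 passed with DESeq2 (0.00109) and without a filter on low counts, but in none of the 6 fits that left out a library. The log2 fold change was 4.54 without control replicate 2, which held most of the control counts, and 2.54 without control replicate 3 (adjusted p = 0.106). Levels were low per length as well, at 0.888 ± 1.03 CPM per kilobase in control F1 and 7.13 ± 3.05 in FR F1 livers (SD, n = 3). The endothelial and stellate marker sums given above were also higher in every FR F1 library than in any control F1 library, and their part in the Pdk4 values was not tested.

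Pdk4 (ENSMUSG00000019577.6) lies on chromosome 6 from 5483351 to 5496309 on the minus strand. The 219 bases upstream of its annotated first exon, chr6:5496310-5496528, minus strand, are shown for comparison with those of Cpt1a, since the mean of Pdk4 was higher and that of Cpt1a lower in FR F1 livers. The capitals mark a CCAAT box (CCAAT, or ATTGG on the other strand). Cpt1a has a CCAAT box as well, which is cut off by the end of its printed stretch.
Pdk4: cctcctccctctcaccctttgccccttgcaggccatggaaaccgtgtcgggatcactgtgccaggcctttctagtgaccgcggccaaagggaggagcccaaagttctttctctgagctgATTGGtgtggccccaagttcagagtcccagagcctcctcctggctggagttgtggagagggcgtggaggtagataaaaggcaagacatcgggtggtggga

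**Figure D3:**
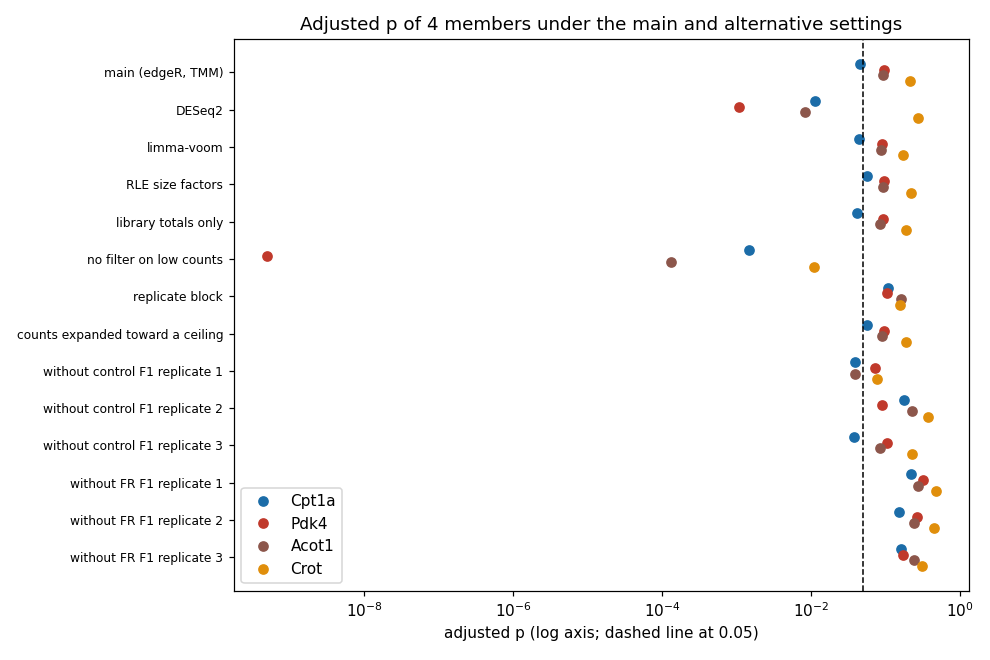
Adjusted p (log axis) of Cpt1a, Pdk4, Acot1 and Crot with edgeR as reported (top row) and under 13 alternatives, with a dashed line at 0.05. Cpt1a is at 0.0460 in the top row and left of the line in 6 alternatives, and no gene is left of it when any FR F1 library is left out.

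The ketone body genes did not pass. Acat1, the mitochondrial acetoacetyl-CoA thiolase gene, had 378, 410 and 380 CPM in the control libraries and 378, 433 and 417 in the FR F1 libraries, with a log2 fold change of 0.07 (95% interval -0.15 to 0.30). Bdh1, which encodes the enzyme interconverting acetoacetate and beta-hydroxybutyrate, had 418, 450 and 458 CPM against 361, 389 and 400 CPM. The Bdh1 groups did not overlap, and the log2 fold change was -0.21 (-0.42 to 0.01; edgeR adjusted p = 0.295). Other ketogenic enzymes are not analysed here.

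Of the 10 peroxisomal members 0 passed with edgeR, 2 were under 0.05 before adjustment (17.9% of all tested genes were), and the count was also 0 with DESeq2 and with limma-voom. Their median log2 fold change was 0.08, with 7 positive values, against -0.03 for the 22 mitochondrial members with 9 positive values. The peroxisomal median was 0.12 and the mitochondrial -0.013 with counts expanded toward a ceiling. Leaving out 1 library gave 0.03 (without control replicate 3) to 0.14 for the peroxisomal and -0.07 to 0.02 for the mitochondrial members. Whether the 2 groups differed was not tested. Crot, the carnitine octanoyltransferase gene that lets chain-shortened acyl groups leave the peroxisome, had 440, 395 and 263 CPM in the control libraries and 541, 566 and 467 in the FR F1 libraries. The lowest of these was control replicate 3, the library low in mitochondrially encoded transcripts. The log2 fold change was 0.52 ± 0.19 (SE; edgeR adjusted p = 0.213) with all libraries and 0.33 without control replicate 3 (adjusted p = 0.226), and Crot passed the threshold only when no filter on low counts was used (adjusted p = 0.0110).

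Acaa1b, a peroxisomal thiolase gene, had 399, 385 and 329 CPM in the control libraries and 433, 467 and 513 in the FR F1 libraries, which did not overlap. The log2 fold change was 0.35 ± 0.11 (SE; edgeR adjusted p = 0.191) and 0.26 without control replicate 3 (adjusted p = 0.286). Its close relative Acaa1a had 321, 292 and 306 CPM against 304, 344 and 376 CPM, which overlapped, and a log2 fold change of 0.16 ± 0.11. The pair is uncertain in that 35.5% of the 50-base windows of the longest Acaa1b transcript also occur in transcripts of other genes, with Acaa1a as the gene that shares them. Scp2, which encodes the sterol carrier protein with its thiolase domain, was the most abundant member per length, at 283 CPM per kilobase in both groups, and had a log2 fold change of 0.0042 ± 0.13. It shares 41.4% of its windows with a pseudogene, Scp2-ps2.

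Counts per base pair of protein-coding genes, those with very short transcripts left out, did not exceed 1.16 in any library. Among the members, Acaa1b, Acaa2, Crot and Scp2 reached 0.5 or more, as did the hepatocyte markers Alb, Apoa1, Tat and Ttr named above. A ceiling in the counts could understate differences in such genes. It could also blur rankings by level per length, as given for Scp2 and Acaa2. With counts expanded toward an assumed ceiling of 1.2 per base pair, the log2 fold change of Acaa1b was 0.58 in place of 0.35 (adjusted p = 0.102) and that of Crot 0.66, and the call of Cpt1a was lost (adjusted p = 0.0560).

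The other enzymes of the peroxisomal spiral did not pass. Ehhadh, the bifunctional enzyme gene inducible by PPARα, had 0.13 (95% interval -0.14 to 0.40), and Hsd17b4, the D-bifunctional protein gene, -0.03 (-0.30 to 0.23). Acox2, the oxidase gene for branched chains and bile acid intermediates, had -0.03 (-0.33 to 0.28). Abcd3, a membrane transporter gene, had 0.16 (-0.17 to 0.49). Of the biogenesis genes, Pex5, the receptor for peroxisomal matrix proteins, had -0.16 (-0.45 to 0.13), and Pex11a, a gene of peroxisome division, 0.02 (-0.40 to 0.44). All 6 intervals included zero.

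The acyl-CoA thioesterases release free fatty acids from coenzyme A, and Acot1 to Acot4 form a cluster on chromosome 12. Acot1, the cytosolic enzyme of the cluster and a known PPARα target, had 43, 36 and 21 counts in control replicates 1, 2 and 3 and 93, 92 and 120 counts in FR replicates 1, 2 and 3. In CPM these were 18.6, 16.2 and 8.05 against 34.8, 33.9 and 49.2. All FR F1 libraries were higher, and the ratio of the means was 2.75. The log2 fold change was 1.46 ± 0.33 (95% interval 0.71 to 2.21) and the adjusted p with edgeR 0.0917, with a range of 0.000133 to 0.273 over the alternatives. It passed with DESeq2 (0.00832), without a filter on low counts and without control replicate 1 (0.0387). The log2 fold change was 1.16 without control replicate 3 (adjusted p = 0.0832). As for Pdk4, the part of the endothelial and stellate markers in this difference was not tested.

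Acot2, the mitochondrial paralog, had 6.50, 6.31 and 4.22 CPM in the control libraries and 9.72, 8.48 and 7.39 in the FR F1 libraries, again without overlap, with a log2 fold change of 0.59 ± 0.32 (edgeR adjusted p = 0.367). Of the 50-base windows of the longest transcript, 18.8% in Acot1 and 27.7% in Acot2 occur in other genes, most often in each other, so part of either value may come from the other gene. Acot3, a peroxisomal enzyme gene, had 4, 9 and 8 counts in control F1 and 1, 1 and 3 counts in FR F1 libraries, too few to be tested. Acot4, its neighbour, had 72.8, 76.2 and 76.7 CPM against 77.4, 73.0 and 69.3 CPM, a log2 fold change of -0.04 (-0.35 to 0.27). Acot12, the cytosolic acetyl-CoA hydrolase gene on chromosome 13, had 209, 225 and 218 CPM against 206, 198 and 192 CPM, without overlap (log2 fold change -0.13; edgeR adjusted p = 0.518). Within the cluster, Acot1 and Acot2 thus had positive values, Acot4 a value near zero and Acot3 fewer counts in FR F1 libraries.

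The upstream sequences of Acot1, chr12:84009252-84009489, and Acot2, chr12:83987611-83987860, both on the plus strand, are shown because these neighbouring paralogs share transcript sequence while their levels differ. Capitals mark CCAAT and GC boxes.
Acot1: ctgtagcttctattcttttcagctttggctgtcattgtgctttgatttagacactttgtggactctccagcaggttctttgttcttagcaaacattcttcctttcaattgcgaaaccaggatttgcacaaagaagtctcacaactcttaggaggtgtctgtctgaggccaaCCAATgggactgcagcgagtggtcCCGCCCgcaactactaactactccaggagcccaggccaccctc
Acot2: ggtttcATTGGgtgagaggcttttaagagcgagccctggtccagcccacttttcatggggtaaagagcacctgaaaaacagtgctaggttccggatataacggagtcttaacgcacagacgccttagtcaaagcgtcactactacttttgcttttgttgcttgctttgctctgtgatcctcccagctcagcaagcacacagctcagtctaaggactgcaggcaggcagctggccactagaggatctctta

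RefSeq start sites on GRCm38.p6, the same assembly as mm10, were found for 34 of the 39 members, with 41 windows of 250 bases before a start. Each motif was searched on both strands. The DR1 element of nuclear receptors such as PPARα, a direct repeat of AGGTCA with 1 base between the copies, and its looser form with half-site AGGNCA, which includes the strict one, were found in 0 of the 41 windows, where 0.0335% and 0.338% of all 32851 windows held them. The E-box CACGTG was found in 1 window, that of Acot4 (6.02% of all windows), and the D-box TTATGTAA in 0 (0.819% of all). GC boxes were found in 20 of the 41 (32.7% of all) and CCAAT boxes in 21 (33.8% of all). These matches describe letters near the starts.

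Other genes of the pathway were 99 in number, of which 91 were tested. Among these 0 rose and 1 fell with edgeR, where 0.392% and 0.445% of all tested genes rose and fell. The gene that fell was Aacs, the cytosolic acetoacetyl-CoA synthetase that feeds ketone bodies into lipid synthesis, with 139, 149 and 122 CPM in the control libraries and 61.3, 40.9 and 60.3 in the FR F1 libraries. Its groups were far apart, with a log2 fold change of -1.34 ± 0.19 (SE; edgeR adjusted p = 0.0321). At an unadjusted p under 0.05 there were 15 of the 91, near the 17.9% of all tested genes. The median log2 fold change was -0.12 over 19 other mitochondrial genes, -0.06 over 33 other peroxisomal genes, 0.05 over 11 genes of fatty acid uptake and binding, 0.25 over 6 genes of ketone use and -0.20 over 22 regulators.

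In the lists where 0 genes passed with edgeR, the smallest p belonged to the following genes. Among regulators, Ppargc1b, a coactivator of mitochondrial genes, had 25.1 ± 8.96 CPM in the control group and 8.42 ± 2.17 in the FR F1 group (SD, n = 3; adjusted p = 0.0894 from edgeR), and Prkaa1, a catalytic AMPK subunit gene, had 27.8 ± 7.42 and 48.5 ± 3.52 CPM (adjusted p = 0.146 from edgeR). Among peroxisomal genes, Pex26 and Pex16, both of peroxisome biogenesis, had log2 fold changes of -0.78 and -0.37. Among mitochondrial genes, Acsm5, a medium-chain synthetase gene, and Mlycd, which encodes malonyl-CoA decarboxylase, had -0.30 and -0.23. In uptake and binding, Fabp4, a fatty acid binding protein gene of adipose tissue, macrophages and endothelium, had 1.30, and Acbd5, a peroxisomal acyl-CoA binding protein gene, 0.65. The number at an unadjusted p under 0.05 was 7 of 22 regulators, 5 of 33 peroxisomal genes, 2 of 11 genes of uptake and binding and 0 of 19 mitochondrial genes, beside 17.9% of all tested genes.

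A pair of regulators was chosen for naming after their values were seen. Lpin1, which encodes a phosphatidate phosphatase that also acts with PPARα, had 423, 335 and 268 CPM in the control libraries and 50.1, 54.2 and 211 in the FR F1 libraries. All FR F1 libraries were below the controls, FR replicate 3 narrowly and the other two far below (log2 fold change -1.71 ± 0.52; edgeR adjusted p = 0.169). Ppara itself had 63.7, 97.8 and 113 CPM against 65.1, 73.0 and 79.2 CPM, which overlapped.

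**Figure D4:**
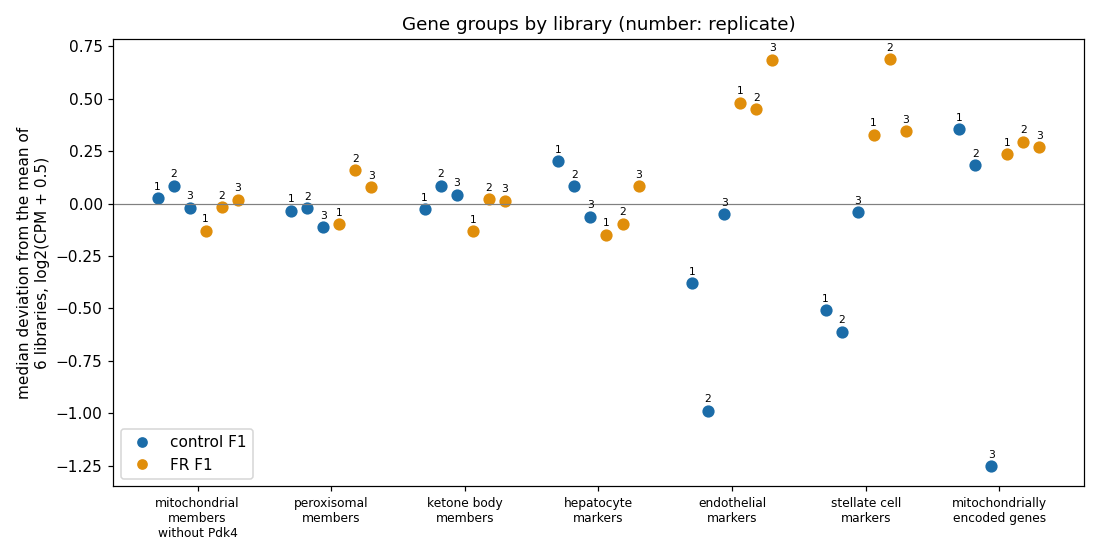
Deviation from the 6-library mean, in log2(CPM + 0.5), as the median over each of 7 gene groups. Points are libraries, numbered by replicate, blue for controls and orange for FR F1. The mitochondrial members without Pdk4 stay between -0.13 and 0.08, whereas endothelial markers run from -0.99 to 0.69. The 9 tested mitochondrially encoded genes lie at -1.25 in control replicate 3.

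As a group, the 21 mitochondrial members without Pdk4 did not follow the mitochondrially encoded genes in control replicate 3. In the plot of deviations by library their median deviation was -0.02 there, against -1.25 for the 9 tested encoded genes. In the same plot the peroxisomal members were lowest in control replicate 3, at -0.11, and highest in FR replicate 2, at 0.16. Both spans are smaller than those of the endothelial and stellate markers. In control replicate 3 the ketone body members were at 0.04, the 4 tested thioesterases, not plotted, at -0.30 and Pdk4 at -2.63. Pdk4, Acot1, Acot2, Crot and Acaa1b each had their lowest level in that library. The same held for the mitochondrial members Acsl1, Acsl5, Acadl, Hadhb and Etfa and for the peroxisomal members Ehhadh, Scp2 and Abcd3.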

How the data were processed

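Raw gene counts for 6 liver libraries were deposited by the authors as 1 table. The build mm10 and the tools HTSeq, STAR, DESeq2 and StringTie are listed, without versions or roles, in the submitters' processing notes. The annotation, the strand setting and how shared or duplicate reads were treated were not given in the sources used here. Extraction was with Trizol and libraries were made with a TruSeq DNA kit, per the labels' protocols.

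Columns were matched to samples through the codes in the descriptions. Symbols and positions came from GENCODE M21, which matched 53620 of 53715 IDs. Raw counts were filtered with filterByExpr (minimum count 10, minimum total 15), scaled with TMM factors and tested with edgeR 4.0.16 in R 4.3.3, without a replicate block. The same fit was run on simulated counts with planted changes, and the outcome is not given here. The simulated counts held no outlying library and no ceiling. Standard errors are the absolute log2 fold change divided by the square root of F, and 95% intervals use the test's degrees of freedom. Levels per kilobase use the longest transcript. Replicate pairs differed beyond counting noise (chi-square per degree of freedom 4.29 to 14.6).

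Alternatives were DESeq2 1.42.0, limma-voom 3.58.1, RLE factors, library totals, no filter on low counts, a replicate block, counts expanded toward an assumed ceiling, and each library left out. Members, gene lists and marker lists were chosen with earlier results of these data known. Every member is named. Of the other lists, genes past the threshold are named, or else the 2 of smallest p, and of the marker lists the 2 most abundant genes. Lpin1, Ppara, Pdgfra, Tat, Apoa1, Ttr, Serpina1a, Cidea and Mb are named outside this rule, after their values were seen. Sequences are from RefSeq on GRCm38.p6, and some genes of the pathway are not reported here.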

Additional observations from a re-analysis of the deposited data

How the results depend on the processing

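Over all genes, 109 passed in the main comparison, 423 with DESeq2, 1251 without a filter on low counts, 21 with the replicate block and 7 to 651 when 1 library was left out (651 and 17 on leaving out control replicates 1 and 2, and 7, 11 and 45 on leaving out FR replicates 1, 2 and 3). Among the members, 1 passed in the main comparison, 3 with DESeq2 (Cpt1a, Acot1 and Pdk4) and 4 without a filter (those and Crot). With edgeR, 0 passed with RLE factors, with the replicate block or with expanded counts, each with 5 at an unadjusted p under 0.05, and 0 to 2 when 1 library was left out (0 without control replicate 2 or any 1 of the FR F1 libraries, with 4 or 5 at an unadjusted p under 0.05). The replicate numbers are not stated to pair libraries. Same-numbered libraries correlated in their deviations at -0.017, 0.11 and 0.15, and not every library correlated best with its own number. Of the 38 tested members, 24 kept their sign under all 13 alternatives. The other 14 had absolute log2 fold changes of at most 0.086. Their values with the opposite sign were -0.0068 with limma-voom and -0.00063 with the replicate block for Pex11a, and -0.0042 for Decr1 and -0.0091 for Scp2 without a filter. Leaving out 1 library gave log2 fold changes of -0.13 to 0.073 for Hadhb, -0.18 to 0.15 for Pex11a, -0.054 to 0.083 for Decr1, -0.12 to 0.082 for Scp2, -0.26 to 0.25 for Crat. It gave -0.064 to 0.0092 for Acadvl, -0.12 to 0.095 for Acox2, -0.066 to 0.12 for Acsl1, -0.025 to 0.098 for Eci1, -0.064 to 0.0085 for Acsl5. It also gave -0.16 to 0.028 for Cpt2, -0.13 to 0.050 for Hsd17b4, -0.022 to 0.18 for Etfdh and -0.069 to 0.011 for Acot4. Of 65 medians of member groups under these alternatives, 1 moved by more than the spread between libraries, that of all members, from -0.0060 to 0.078 without FR replicate 1. The median of all genes moved by at most 0.087 under any alternative. Low counts limit what can be said of Pdk4, Acot1, Acot2, Acot3 and Etfb.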
